A study of Mus musculus with 24 samples.

Results

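The Toll-like receptors (TLRs) Tlr1, Tlr2, Tlr3, Tlr4, Tlr7, Tlr9 and Tlr13, the TLR co-receptors Cd14 and Ly96 and the shared adaptor Myd88 were followed across 5 groups of mouse spinal cords. The genes were chosen by name. Each was represented by the probe set that carries its symbol alone and has the highest mean over the 24 arrays. 9 of the 10 genes were measured, with 13 such probe sets, among 17097 genes in all. No probe set used here was named Tlr13, a mouse endosomal receptor for bacterial ribosomal RNA, and it therefore has no value.

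Experimental autoimmune encephalomyelitis (EAE), a mouse model of multiple sclerosis, was induced by adoptive transfer of T cells reactive to MOG35-55, a peptide of myelin oligodendrocyte glycoprotein. The donor cells had been polarized to the interleukin (IL)-17-producing Th17 type or the interferon-γ-producing Th1 type. The groups were wild-type (WT) Th17 recipients (n = 5), WT Th1 recipients (n = 5), unchallenged or naive WT mice (n = 5), Th17 recipients labelled Act1 KO (n = 4) and naive mice labelled Act1 KO (n = 5). Act1, the product of Traf3ip2, is an adaptor of the IL-17 receptor, and the label Act1 KO refers to the recipient. Recipients were irradiated with 500 Rad before the transfer and naive mice were untreated, so irradiation and transfer cannot be told apart. All mice were female and age-matched at 8 to 12 weeks, with 1 array per mouse. The labels place collection at the onset of symptoms, whereas the design text places it at the peak of disease.

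TLRs are pattern recognition receptors of innate immunity. TLR1, TLR2 and TLR4 sit at the cell surface and sense bacterial lipoproteins or lipopolysaccharide, and TLR3, TLR7 and TLR9 sit in endosomes and sense nucleic acids. CD14 and MD-2, the product of Ly96, hand lipopolysaccharide to TLR4, and MYD88 couples all of these receptors except TLR3 to NF-κB. In the central nervous system TLRs are found mainly on microglia and on infiltrating myeloid cells, and astrocytes carry TLR3.

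Values are log2 expression after robust multi-array average (RMA) processing, in which the median of the arrays lay between 3.46 and 3.57. Arrays of 1 group correlated at 0.986 to 0.997, and 82.8% of the variance fell on the first principal component. On it, Th1 recipients 4 and 5 (55.0 and 55.9) stood apart from the other 3 Th1 recipients (67.8 to 68.5). Th17 recipients labelled Act1 KO lay at -47.5 to -46.4, beside the naive mice. Traf3ip2 read 5.59 to 5.83 in Th17 recipients labelled Act1 KO and 5.38 to 5.92 in naive mice labelled Act1 KO, against 5.14 to 5.56 in WT Th17 recipients and 4.07 to 4.60 in naive WT mice. Neither the deleted part of the gene nor the position of the probe set was given, so this level does not check the label.

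In WT mice, 8 of the 9 measured genes exceeded the naive level in Th17 recipients, and only Tlr9 did not pass the test. The differences ran from 1.30 on the log2 scale for Tlr3 to 5.77 for Tlr2, and the 8 genes showed no overlap between the groups. A gene was called at a limma adjusted p under 0.05 over all genes. By the same rule 18.0% of all genes were called higher, and 15.0% lay higher without overlap. The median difference was 2.76 over the 9 genes and -0.05 over all genes. Because these are whole spinal cords, more cells that carry a receptor and more of its RNA per cell cannot be told apart.

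Among the surface receptors, Tlr2, which pairs with TLR1 or TLR6 to bind bacterial lipoproteins, had the largest measured difference of the 9. Tlr2 read 9.30, 9.19, 9.45, 8.80 and 9.12 in Th17 recipients, 8.63, 8.72, 8.86, 9.0 and 9.06 in Th1 recipients and 3.42, 3.48, 3.12, 3.52 and 3.48 in naive mice. Every recipient was above every naive mouse. The difference was 5.77 ± 0.13 (SE) between Th17 recipients and naive mice (limma adjusted p = 3.27e-23). Between Th1 recipients and naive mice it was 5.45 ± 0.13 (adjusted p = 1.23e-22).

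Tlr1, the partner of TLR2 for triacylated lipoproteins, read 5.49, 6.01, 5.47, 6.26 and 5.14 in Th17 recipients, 5.22, 5.30, 5.26, 5.31 and 5.65 in Th1 recipients and 2.61, 2.76, 2.79, 2.72 and 2.44 in naive mice. The recipients were again all above the naive mice, with the widest spread in Th17 recipients (SD 0.45). The difference from naive mice was 3.01 ± 0.16 in Th17 recipients (adjusted p = 7.63e-15) and 2.68 ± 0.16 in Th1 recipients (adjusted p = 1.02e-13). Tlr1 and Tlr6 are close paralogs, and cross-hybridization between them was not tested. Tlr4, the lipopolysaccharide receptor, read 4.84, 5.50, 5.46, 5.73 and 5.04 in Th17 recipients, 5.45, 4.94, 5.19, 4.30 and 4.77 in Th1 recipients and 3.06, 3.04, 2.87, 3.32 and 3.23 in naive mice. Here the difference was 2.21 ± 0.17 in Th17 recipients (adjusted p = 1.49e-11) and 1.82 ± 0.17 in Th1 recipients (adjusted p = 8.13e-10).

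Both co-receptors of TLR4 were higher in recipients. Cd14, which takes up lipopolysaccharide at the cell surface, read 8.83, 8.83, 8.87, 8.82 and 8.60 in Th17 recipients, 8.58, 8.50, 8.46, 7.72 and 7.77 in Th1 recipients and 3.81, 4.20, 4.28, 4.17 and 3.88 in naive mice. Its difference from naive mice was 4.72 ± 0.15 in Th17 recipients (26.4-fold, adjusted p = 6.33e-20) and 4.14 ± 0.15 in Th1 recipients (17.6-fold, adjusted p = 1.23e-18). Th1 recipients 4 and 5 had the lowest Cd14 values of all WT recipients.

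Ly96, whose product MD-2 forms the lipopolysaccharide pocket of TLR4, read 4.22, 3.83, 4.35, 4.02 and 4.09 in Th17 recipients, 3.60, 4.07, 3.81, 3.42 and 3.46 in Th1 recipients and 2.80, 2.71, 2.56, 2.68 and 2.70 in naive mice. Its difference from naive mice was 1.42 ± 0.12 in Th17 recipients (adjusted p = 1.07e-10). In Th1 recipients it was 0.98 ± 0.12 (adjusted p = 1.14e-07). The same 2 Th1 recipients were the lowest for Ly96.

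Of the endosomal receptors, Tlr7 and Tlr3 were called higher in recipients and Tlr9 was not. Tlr7, which senses single-stranded RNA, read 5.97, 6.20, 5.94, 5.66 and 5.72 in Th17 recipients, 5.90, 5.95, 6.40, 5.64 and 5.44 in Th1 recipients and 3.32, 2.90, 2.96, 3.33 and 3.16 in naive mice. It was higher by 2.76 ± 0.13 in Th17 recipients (adjusted p = 1.03e-15) and by 2.73 ± 0.13 in Th1 recipients (adjusted p = 1.43e-15). Tlr3, which senses double-stranded RNA and signals through TRIF in place of MYD88, read 6.87, 7.07, 6.76, 6.84 and 7.17 in Th17 recipients, 6.96, 7.05, 7.01, 6.86 and 6.90 in Th1 recipients and 5.44, 5.55, 5.81, 5.57 and 5.84 in naive mice. The recipients stood above the naive mice without overlap, by 1.30 ± 0.12 in Th17 recipients (adjusted p = 9.63e-10) and 1.32 ± 0.12 in Th1 recipients (adjusted p = 9.1e-10). The naive mean of Tlr3, 5.64, lay above the array medians, but that of its second probe set, 2.65, lay below them.

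Tlr9, which senses unmethylated CpG DNA, read 3.07, 3.08, 3.25, 3.25 and 3.59 in Th17 recipients, 3.33, 3.20, 3.29, 2.92 and 3.29 in Th1 recipients and 3.09, 3.01, 2.99, 3.18 and 3.18 in naive mice. The groups overlapped, and the difference from naive mice was 0.16 ± 0.11 in Th17 recipients (95% interval -0.07 to 0.39, adjusted p = 0.275) and 0.12 ± 0.11 in Th1 recipients (95% interval -0.11 to 0.34, adjusted p = 0.462). The means of Tlr9 lay below every array median in all 5 groups (3.08 to 3.25), so whether its RNA was present in any of them, recipients included, cannot be told. The sign of the Tlr9 difference turned when arrays were centred on 67 ribosomal protein genes, to -0.28 in Th17 and -0.38 in Th1 recipients, and the Th1 value was called.

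Myd88, the adaptor through which most TLRs and the IL-1 receptor signal, read 6.90, 7.09, 7.26, 6.88 and 7.45 in Th17 recipients, 7.01, 6.39, 6.91, 6.50 and 6.92 in Th1 recipients and 4.36, 3.95, 4.16, 4.45 and 3.83 in naive mice. The recipients lay above the naive mice without overlap, by 2.96 ± 0.19 in Th17 recipients (7.81-fold, adjusted p = 6.13e-13) and 2.60 ± 0.19 in Th1 recipients (6.05-fold, adjusted p = 1.14e-11).

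**Figure D1:**
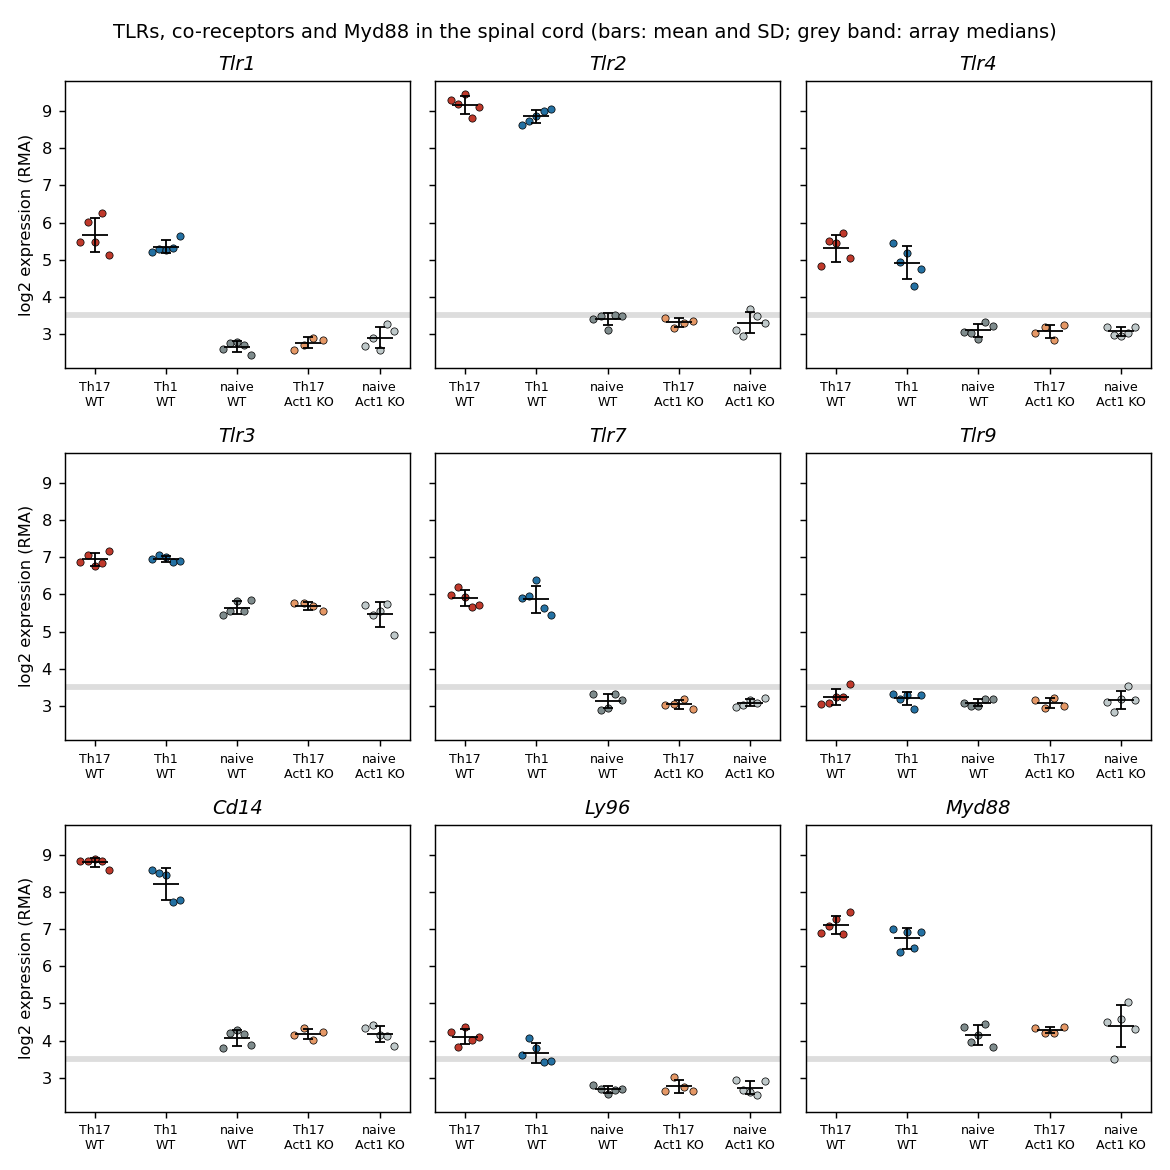
Log2 expression (RMA) of the 9 measured genes in each spinal cord, by group. Points are mice, bars the mean and SD, and the grey band the array medians (3.46 to 3.57). In 8 panels the WT Th17 and Th1 recipients stand above the naive and Act1 KO mice without overlap, and in the Tlr9 panel all groups overlap.

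Ordered by the difference between WT Th17 recipients and naive mice, the measured values gave the following order. Tlr2 (95% interval 5.51 to 6.03) and Cd14 (4.42 to 5.02) had intervals apart from each other and from all others. Tlr1 (2.68 to 3.33), Myd88 (2.57 to 3.36) and Tlr7 (2.49 to 3.04) overlapped one another, and Tlr4 (1.87 to 2.55) overlapped the lower end of Tlr7. Ly96 (1.18 to 1.66) and Tlr3 (1.05 to 1.55) overlapped each other and lay above Tlr9 (-0.07 to 0.39). These are differences of 1 probe set each, and no level was compared between probe sets. The exact permutation p was 0.00794 for each of the 8 called genes, the smallest that 5 mice against 5 can give. The naive means of 6 of the 9 genes (Tlr1, Tlr2, Tlr4, Tlr7, Tlr9 and Ly96) lay below every array median. No detection call was used here, so whether their RNA was present in naive cords cannot be told. No fold against naive mice is therefore given for these 6, and the order is one of measured values, not of the size of the response.

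In Th1 recipients, too, 8 of the 9 genes were higher than in naive mice, where 16.7% of all genes were called higher. The median difference was 2.60 over the 9 genes. Both comparisons share the same naive mice.

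**Figure D2:**
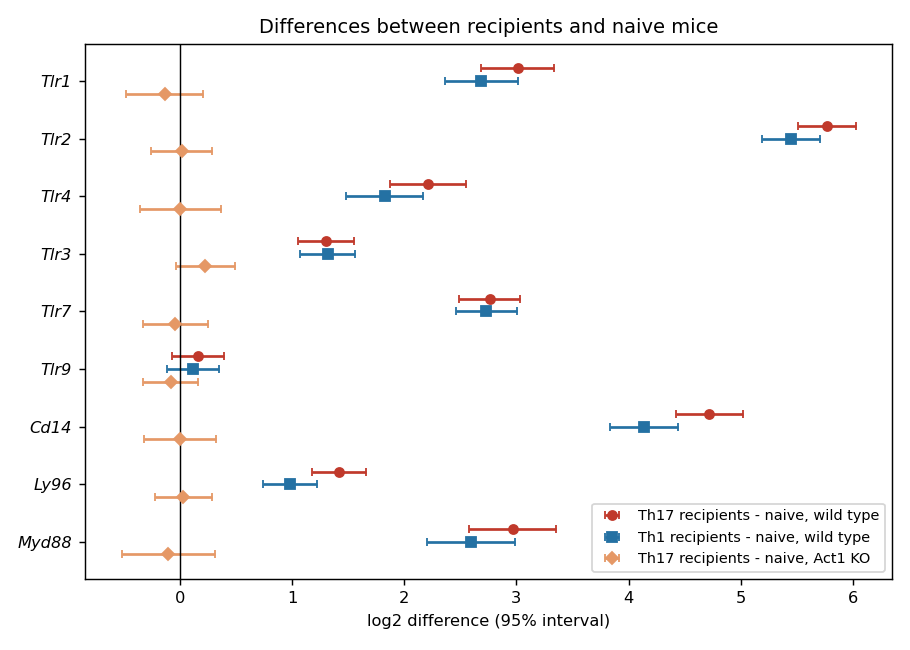
Difference on the log2 scale between recipients and naive mice for each gene, with 95% intervals from limma. Circles are WT Th17 recipients, squares WT Th1 recipients and diamonds Th17 recipients labelled Act1 KO, each against the naive mice of its own genotype. The WT intervals lie above 0 for every gene but Tlr9, and all Act1 KO intervals include 0.

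The sequences upstream of 4 of the genes are shown so that Tlr2, Tlr1 and Myd88, which rose, can be read beside Tlr9, which did not pass the test and stayed below the array medians. Each is the 250 bases before the RefSeq start, 5′ to 3′ on the gene's strand (GRCm38.p6), with motif matches in capitals. Tlr2 lies at chr3:83841609-83841858, minus strand, Tlr1 (the first of 2 starts) at chr5:64933559-64933808, minus strand, Myd88 at chr9:119340019-119340268, minus strand and Tlr9 at chr9:106222348-106222597, plus strand.
Tlr2 promoter: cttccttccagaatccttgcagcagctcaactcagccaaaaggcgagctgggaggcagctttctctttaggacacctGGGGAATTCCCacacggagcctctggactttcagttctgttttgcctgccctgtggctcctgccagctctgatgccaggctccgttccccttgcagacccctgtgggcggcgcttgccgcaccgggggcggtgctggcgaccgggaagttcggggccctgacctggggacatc
Tlr1 promoter: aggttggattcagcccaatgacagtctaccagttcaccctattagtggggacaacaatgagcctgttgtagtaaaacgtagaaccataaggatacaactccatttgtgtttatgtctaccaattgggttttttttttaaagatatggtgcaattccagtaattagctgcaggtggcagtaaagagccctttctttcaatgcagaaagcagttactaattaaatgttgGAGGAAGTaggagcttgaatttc
Myd88 promoter: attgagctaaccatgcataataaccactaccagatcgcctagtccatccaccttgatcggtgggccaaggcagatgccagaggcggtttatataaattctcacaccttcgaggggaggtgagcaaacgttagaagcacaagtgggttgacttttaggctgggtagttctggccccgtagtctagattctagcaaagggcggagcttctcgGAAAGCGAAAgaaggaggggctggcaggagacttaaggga
Tlr9 promoter: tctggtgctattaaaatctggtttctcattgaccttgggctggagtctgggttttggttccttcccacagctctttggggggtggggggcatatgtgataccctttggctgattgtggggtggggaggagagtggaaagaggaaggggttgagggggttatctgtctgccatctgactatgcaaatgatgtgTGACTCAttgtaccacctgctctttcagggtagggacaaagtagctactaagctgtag
Both strands were searched for 4 motifs, written with N for any base. The capitals in Tlr2 mark 2 overlapping matches to the NF-κB motif (3 G, any 5 bases, then 2 C), which begin 173 and 172 bases before the start. The capitals in Tlr1 mark a match to the PU.1 motif GAGGAAGT at 23 bases, those in Myd88 a match to the interferon-stimulated response element (GAAA, any 2 bases, GAAA) at 40 bases, and those in Tlr9 a match to the AP-1 motif TGANTCA at 58 bases. Of 32851 promoter windows of the same length, 45.8% held the NF-κB motif, 2.44% the PU.1 motif, 2.98% the interferon-stimulated response element and 6.75% the AP-1 motif. Of the windows not shown, the second Tlr1 start and Tlr13 held none of the 4 motifs, and Tlr3, which was also higher in recipients, held 2 matches to the NF-κB motif. These matches describe letters and were not tested as sites.

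Between WT Th17 and Th1 recipients, Cd14 and Ly96 were called higher in Th17 recipients and the other 7 genes did not pass the test. By this rule 1.91% of all genes were called higher. Cd14 was higher by 0.58 ± 0.15 (1.5-fold, adjusted p = 0.0225), and it alone of the 9 showed no overlap (8.60 to 8.87 in Th17 recipients against 7.72 to 8.58 in Th1 recipients). Of all genes, 1.93% lay higher without overlap. Ly96 was higher by 0.44 ± 0.12 (1.35-fold, adjusted p = 0.0368), with overlapping groups. The Ly96 mean in Th1 recipients, 3.67, lay close to the array medians. Th1 recipients 4 and 5 read below the medians of their own arrays (3.56 and 3.54), so this fold may not be one between detected levels.

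Both calls were lost in several fits with mice left out. Without Th1 recipients 4 and 5, Cd14 differed by 0.28 (adjusted p = 0.453) and Ly96 by 0.28 (adjusted p = 0.472). None of the 9 genes was then called. These 2 mice held the lowest Th1 values of both genes, so leaving them out had to lower both differences. The Cd14 call was also lost on leaving out Th17 recipient 2, 3 or 4 or Th1 recipient 4 or 5 alone (adjusted p 0.0504 to 0.0964). Without any of these Th17 recipients the Cd14 difference stayed at 0.56 to 0.58. It fell to 0.46 without Th1 recipient 4 and to 0.48 without Th1 recipient 5. The Ly96 call was lost without Th17 recipient 1, 3, 4 or 5 or Th1 recipient 1, 4 or 5 (adjusted p 0.0504 to 0.135). In these fits the Ly96 difference was 0.37 to 0.46, beside 0.44 with all mice. A letter in the code of each title was taken as a row of the array plate, which no source used here states. Within the 3 such assumed rows that held both groups, Cd14 was higher in Th17 recipients by 0.25 to 1.10 and Ly96 by 0.23 to 0.90. Each of these rows set 1 mouse against 1, and the largest difference of both genes came from the row of Th1 recipient 5.

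For the remaining genes the intervals of the difference between Th17 and Th1 recipients were 0.06 to 0.58 for Tlr2 (adjusted p = 0.236), 0.05 to 0.73 for Tlr4 (adjusted p = 0.309) and -0.03 to 0.76 for Myd88 (adjusted p = 0.473). They were just below 0 to 0.65 for Tlr1, -0.26 to 0.23 for Tlr3, -0.24 to 0.31 for Tlr7 and -0.18 to 0.27 for Tlr9. For none of the 3 endosomal receptors did the interval of the probe set used exceed 0.31 in either direction. The other Tlr7 probe sets, near or below the array medians, gave -0.28 ± 0.08 and -0.08 ± 0.13, with intervals not bounded by that value. Tlr9 lay below the array medians in both groups, so its interval does not bound a difference in its RNA. At an unadjusted p under 0.05, 4 of the 9 genes passed (Cd14, Ly96, Tlr2 and Tlr4), as did 2051 of the 17097 genes in all.

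**Figure D3:**
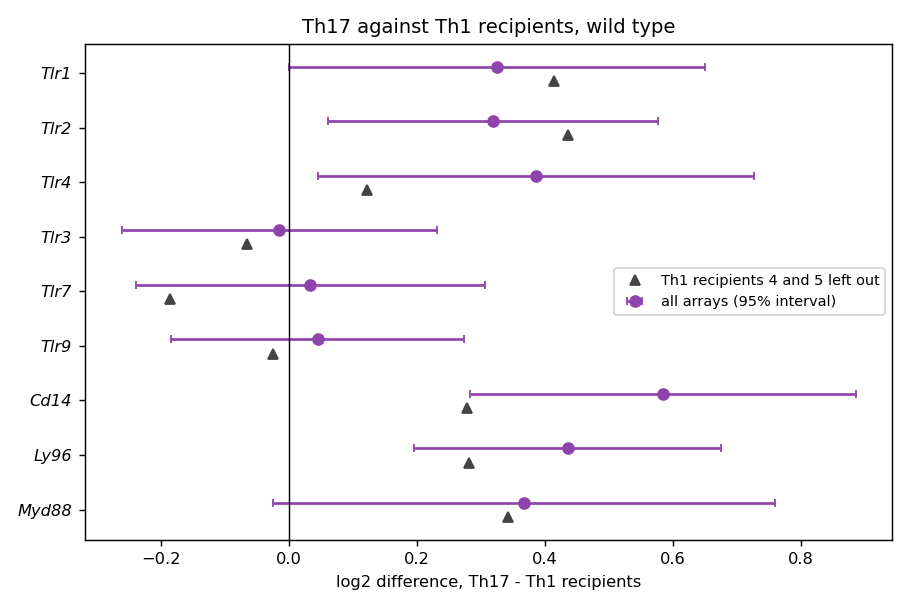
Difference on the log2 scale between WT Th17 and Th1 recipients for each gene. Circles are the fit to all arrays with 95% intervals, and triangles the difference without Th1 recipients 4 and 5. Cd14 and Ly96, at 0.58 and 0.44 with all arrays, both move to 0.28 without these mice, which held the lowest Th1 values of both genes.

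Markers of infiltrating and of resident cells also differed between WT Th17 recipients and naive mice, in differing directions. All 10 pan-myeloid markers lay above naive mice in WT Th17 recipients (median difference 4.10), as did 8 of 9 monocyte and macrophage markers (median 5.30) and all 7 T cell markers (median 2.90). The summed linear level of the pan-myeloid markers was 5483 to 8404 in Th17 recipients and 7177 to 8572 in Th1 recipients, against 394 to 419 in naive mice. Of 8 homeostatic microglia markers, 4 were higher and 4 lower, with Tmem119 higher (1.96) and P2ry12 lower (-0.89). All 7 neuron markers (median -0.70), all 5 oligodendrocyte markers (median -0.61) and 3 of 4 oligodendrocyte precursor markers (median -0.56) lay below the naive level in Th17 recipients. Of 8 astrocyte markers 4 were higher and 3 lower (1 and 4 with arrays centred on ribosomal protein genes). None of 5 B cell markers was called, and their means lay below the array medians in every group.

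Between Th17 and Th1 recipients, markers of several cell types were called beside Cd14 and Ly96. Of the neutrophil markers, 5 of 10 were higher in Th17 recipients, with a summed level of 743 to 1479 in Th17 recipients against 229 to 407 in Th1 recipients. The monocyte and macrophage sum was 5096 to 6331 in Th17 recipients and 4212 to 6608 in Th1 recipients. The lowest sums of Th1 recipients were in numbers 4 and 5 (4997 and 4212). By the mean log2 value of the same list, the lowest were numbers 4 and 2 (7.80 and 7.86), and number 5 read 7.89. Of that list, Ccr2 (0.73) and Plac8 (1.34) were called higher, as were Itgam (0.52), alone of the 10 pan-myeloid markers, and Cd4 (0.66), Cd2 (0.68) and Icos (1.11) of the 7 T cell markers. The dendritic cell marker Itgax (-1.48) and the endothelial markers Flt1 (-0.56) and Slco1c1 (-0.58) were lower, and the astrocyte marker Slc1a2 (0.39) was higher. Without Th1 recipients 4 and 5, 6 neutrophil markers were higher and no pan-myeloid marker was called. The part of these cells in the receptor values was not tested.

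In mice labelled Act1 KO, none of the 9 genes was called by limma between Th17 recipients and naive mice, and 0 passed at an unadjusted p under 0.05. The differences ran from -0.14 for Tlr1 to 0.22 for Tlr3, and the 95% intervals of the 9 genes stayed within -0.52 and 0.49. The groups overlapped for all 9 genes. Tlr2 read 3.44, 3.17, 3.31 and 3.36 in Th17 recipients labelled Act1 KO, against 3.11, 2.96, 3.67, 3.48 and 3.31 in naive mice labelled Act1 KO. Cd14 read 4.15, 4.34, 4.01 and 4.22 in these recipients, against 4.33, 4.43, 4.16, 4.12 and 3.87 in the naive mice. Myd88 read 4.33, 4.21, 4.21 and 4.36 in the recipients, against 4.51, 3.50, 4.57, 5.04 and 4.31 in the naive mice. These values show no separation, and 6 of the 9 genes had means below every array median in both groups.

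The test called 0% of the 17097 genes between these groups, with 1070 genes at an unadjusted p under 0.05. An exact Mann-Whitney test also called 0 genes after adjustment, but with 4 mice against 5 it could call any only if a large share of all genes reached its smallest p. None of the 7 T cell markers and none of the 10 pan-myeloid markers was called, and the summed pan-myeloid level was 387 to 448 in Th17 recipients labelled Act1 KO against 351 to 439 in naive mice labelled Act1 KO. The part of cell infiltration in these receptor values was not tested.

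Between naive mice of the 2 genotypes, limma called none of the 9 genes (0.585% of all genes were called). At an unadjusted p under 0.05, 0 of the 9 passed, beside 1250 of the 17097 genes in all. The differences, Act1 KO minus WT, ran from -0.17 for Tlr3 to 0.24 for Tlr1. Between Th17 recipients of the 2 genotypes, 8 of the 9 genes were lower in those labelled Act1 KO, where 17.6% of all genes were called lower. Tlr2 averaged 3.32 ± 0.11 in Th17 recipients labelled Act1 KO and 9.17 ± 0.24 in WT Th17 recipients (SD, n = 4 and 5), with the Act1 KO mean below every array median. Tlr9 averaged 3.08 ± 0.13 in Th17 recipients labelled Act1 KO and 3.25 ± 0.21 in WT Th17 recipients (adjusted p = 0.269).

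How far the response to Th17 transfer differed between genotypes was itself tested as an interaction, Act1 KO minus WT. It was called negative for the same 8 genes, where 13.8% of all genes were called negative. It was -5.75 ± 0.18 for Tlr2 (adjusted p = 3.91e-19), -4.72 ± 0.21 for Cd14 (adjusted p = 6.04e-16) and -1.08 ± 0.17 for Tlr3 (adjusted p = 2.15e-05). For Tlr9 it was -0.24 ± 0.16 (adjusted p = 0.29).

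Genes that work beside these receptors were described by 7 lists. In WT Th17 recipients against naive mice, 25.5% of all genes were called lower beside the 18.0% called higher. Of 9 measured other receptors and co-receptors, 6 were higher and none lower (median 1.16). Ly86, which encodes MD-1, averaged 10.48 in Th17 recipients and 7.84 in naive mice, a difference of 2.64. The scavenger receptor Cd36 was higher by 2.50, the lipopolysaccharide-binding protein Lbp by 2.02 and Tlr6, the other partner of TLR2, by 1.21. Of 5 genes for trafficking and chaperones, 4 were higher (median 0.57). These include Unc93b1, which carries endosomal TLRs from the endoplasmic reticulum (by 3.27), and Nrros, which binds TLRs in that compartment (by 3.58).

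Of 7 measured endogenous TLR ligands, 6 were called higher in the Th17 comparison (median 3.31), among them fibronectin Fn1 by 5.25, the alarmin S100a8 by 5.29 and tenascin Tnc by 3.31. Of 16 adaptors and kinases, 11 were higher and 2 lower (median 0.48). Ikbke was higher by 3.09, Btk by 2.20 and Irak2 by 1.32, whereas Map3k7, which encodes TAK1, and its partner Tab3 were lower (-0.35 and -0.59). With arrays centred on ribosomal protein genes, this list had 4 higher and 3 lower, the other receptors 6 and 3, the trafficking genes 2 and 1, and the ligands 5 and 1.

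Of 10 measured inhibitors of the pathway, 7 exceeded the naive level in Th17 recipients and 2 lay below it (median 1.37). Tnfaip3, which encodes the ubiquitin-editing enzyme A20, was higher by 3.88, the IκBα gene Nfkbia by 2.53 and the kinase-like Irak3 by 1.83. Tollip and the deubiquitinase gene Cyld were lower (-0.37 and -0.58). All 11 transcription factors were higher (median 2.05), 9 of them also with arrays centred on ribosomal protein genes, and Irf7 led by 5.68. Of 18 target genes 14 were higher (median 1.38), with Cxcl10 at 10.41 in Th17 recipients and 3.07 in naive mice. Ifnb1, Il10, Il12b and Cd80 were not called. Centred on ribosomal protein genes, the inhibitors had 7 higher and 3 lower and the targets 13 and 3. In mice labelled Act1 KO, none of the genes on the 7 lists was called between Th17 recipients and naive mice.

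Between WT Th17 and Th1 recipients, 5 of the 7 lists held calls, where 1.09% of all genes were called lower beside the 1.91% called higher. Of 7 ligands 4 were higher in Th17 recipients, or 3 without Th1 recipients 4 and 5. S100a9 averaged 8.52 in Th17 recipients and 4.57 in Th1 recipients, and S100a8 was higher by 2.23. Of 18 targets 6 were higher, led by Il1b (7.32 in Th17 and 5.03 in Th1 recipients) and by Ptgs2, which encodes cyclooxygenase-2 (a difference of 1.39). Among the transcription factors Nfkbiz, which encodes IκBζ, was higher by 1.37, and Nfkb2 and Jun were also called. Of the other receptors, Lbp was higher by 0.47 and Cd36 lower (-0.84). Of the adaptors and kinases Map3k8 alone was called, by 0.64, a call lost without Th1 recipients 4 and 5. None of the 10 inhibitors and none of the 5 trafficking genes was called. S100a8 and S100a9 are also neutrophil markers, and 5 of the 10 genes of that list were higher in Th17 recipients.

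**Figure D4:**
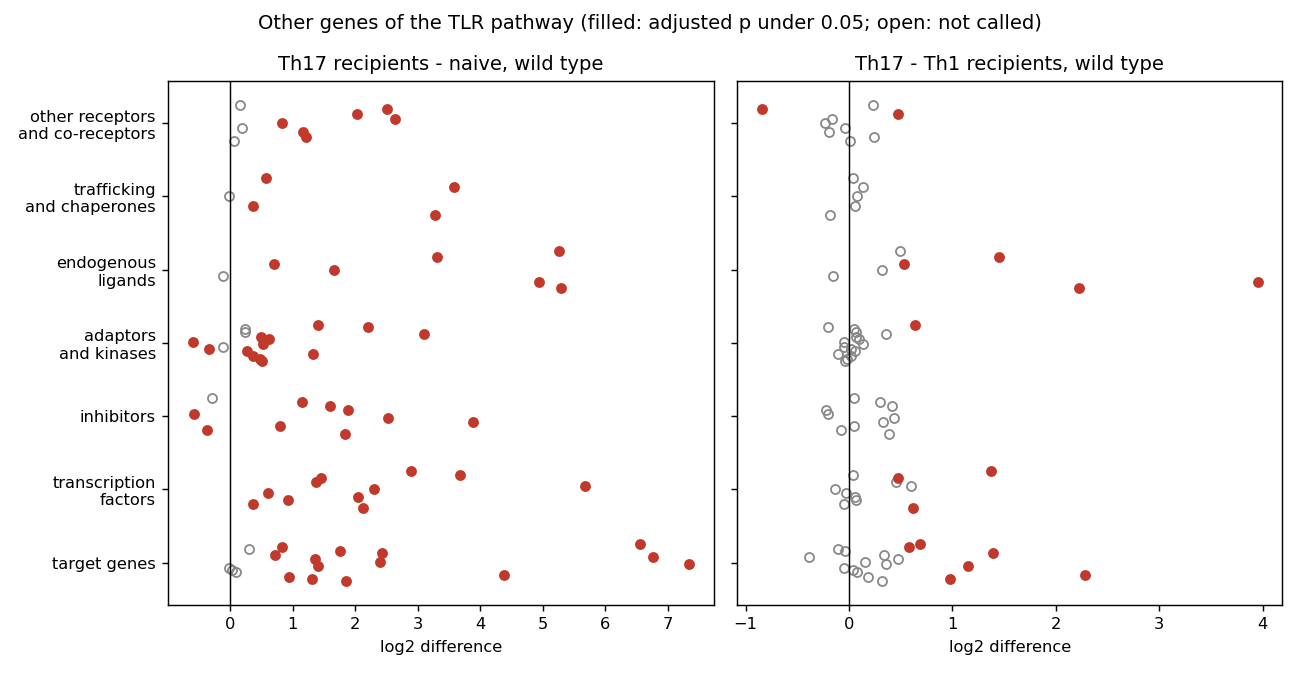
Difference on the log2 scale for each measured gene of the 7 lists, in WT Th17 recipients against naive mice (left) and against Th1 recipients (right). Filled points passed the limma test at an adjusted p under 0.05 and open points did not. On the left all 11 transcription factors and 14 of 18 target genes are filled to the right of 0, and on the right the ligands and target genes hold 10 of the 15 filled points above 0.

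Tlr3, Tlr4 and Tlr7 were measured by further probe sets. For Tlr4 the second probe set gave 2.10 between Th17 recipients and naive mice, beside 2.21. For Tlr3 it gave 0.48, beside 1.30 from the probe set used, whose _s_ suffix marks probes shared by more than 1 transcript. The Tlr3 values given above all rest on that probe set. For Tlr7 the other probe sets gave 0.52 and 0.19 (adjusted p = 0.0746), beside 2.76, and the lowest of these, by its _x_ suffix, holds probes that match other sequences too. The weaker probe sets of Tlr3 and Tlr7 stayed near or below the array medians in every group.

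**Figure D5:**
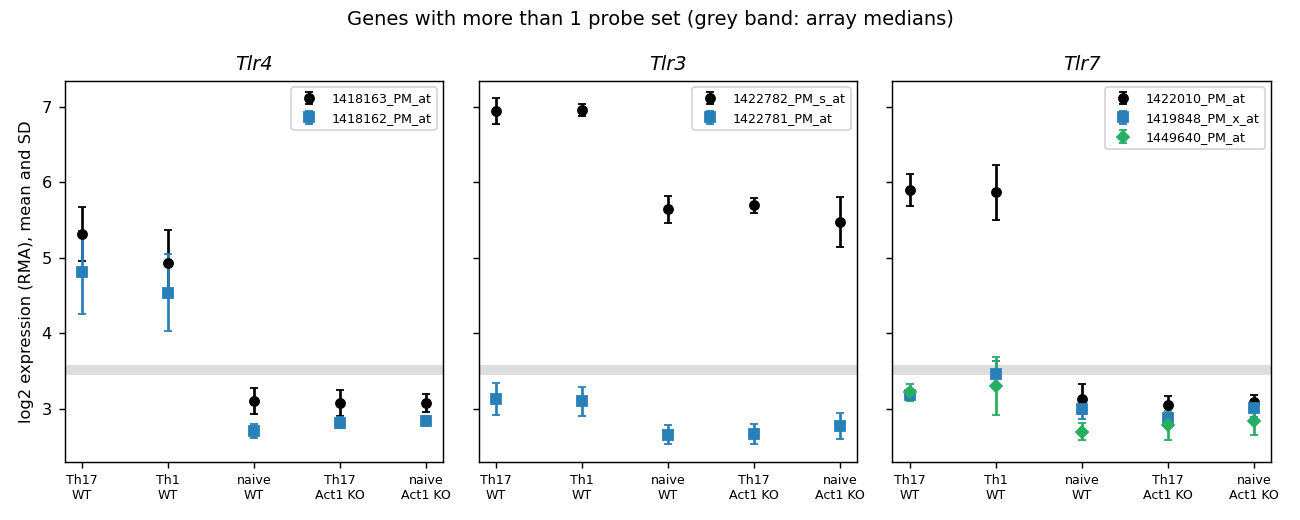
Mean and SD of the log2 expression of each probe set of Tlr4, Tlr3 and Tlr7, by group, with the grey band at the array medians. Both Tlr4 probe sets separate the WT recipients from the other groups, whereas the dimmer Tlr3 and Tlr7 probe sets stay close to the band or under it.

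The genes whose level followed each receptor most closely over the 24 arrays were named by Pearson r, as a description. Tlr2 was closest to Lcn2 (r = 0.997), which encodes lipocalin-2, and Cd14 to Ifi209 (r = 0.996). Tlr7 was closest to Capg (r = 0.994), Tlr1 to Pik3r5 (r = 0.987) and Myd88 to Parp9 (r = 0.984). For Tlr4 it was Mcm6 (r = 0.984), for Tlr3 Rnh1 (r = 0.983), for Ly96 Tnfrsf4 (r = 0.981) and for Tlr9 Exosc1 (r = 0.801). The arrays fall into WT recipients and all other mice, and each r spans both sets.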

How the data were processed

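Spinal cord RNA of 24 mice was hybridized to Affymetrix HT MG-430 PM arrays, 1 per mouse. The authors deposited log2 expression values from RMA (background correction, normalization between arrays and a summary over the probes of each set), and its version is not given in the sources used here. Of 45118 probe sets, the platform annotation gives 28898 a single symbol, 551 several and 15669 none, and only the first kind was used, with the probe set of highest mean for each of 17097 genes. No 2 arrays held identical values. Groups were taken from the sample labels.

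The model held 5 group means over all 24 arrays (lmFit and eBayes of limma 3.58.1, R 4.3.3), with two-sided tests adjusted by Benjamini-Hochberg over all genes and called at 0.05. The scripts were tested on simulated data. An exact permutation test was run for each receptor gene, and the alternatives covered scaling, filters, probe sets, blocks, tests and left-out arrays. The number of arrays limits the precision. The genes and lists were chosen with earlier results of these data known. From each list, the text names up to 4 genes with the smallest adjusted p and those called against their list's direction, and a few others that were chosen after their values were seen. Promoter sequences and gene starts are from RefSeq (GRCm38.p6), in which windows of 6 of the 10 genes were found. Of the authors' files, only the value table was used.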

Additional observations from a re-analysis of the deposited data

Results flagged for a closer look

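Among 45 sets of 4 or 5 mice tested for 1 value far from the rest, 3 were marked, and chance alone marks about 1 in 20. Cd14 was lowest in WT Th17 recipient 5, at 8.60 (the other 4 lay between 8.82 and 8.87). Tlr1 was highest in Th1 recipient 5, at 5.65, and Tlr2 was lowest in naive WT mouse 3, at 3.12. None of these mice changed a call of the genes against naive mice when it was left out.

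The Th17 response differed between genotypes for 8 of the 9 genes by the test of the difference itself (Act1 KO minus WT, limma, adjusted over all genes). The values were -5.75 for Tlr2, -4.72 for Cd14, -3.15 for Tlr1, -3.07 for Myd88, -2.81 for Tlr7, -2.21 for Tlr4, -1.39 for Ly96 and -1.08 for Tlr3.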

How the results depend on the processing

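The counts of called genes (8, 8, 0, 0, 8 and 8 of 9) kept within 1.5 times their value under every alternative run, for all comparisons except Th17 against Th1 recipients. There, 2 genes were called, against 1 with genes above the array median only, with arrays centred on their median or after quantile normalization. It was also 1 with the plate row, as assumed from the titles, as a block. The count was 0 with only the groups compared in the fit, without Th1 recipients 4 and 5, by the methods' t-test after adjustment, by the exact Mann-Whitney test after adjustment (which called 0 of all genes here and so says nothing of these 2), and with a 2-fold minimum. Leaving out 1 mouse at a time gave 0 to 2. The cause of these changes was not tested. Centring arrays on 67 ribosomal protein genes moved the median of all genes by -0.44 in Th17 and -0.50 in Th1 recipients against naive mice, and turned the split of calls in Th17 recipients from 3069 higher of 7436 to 1657 of 15045. Under it Tlr9 turned to -0.38 in Th1 recipients against naive mice (adjusted p = 0.0110), the only called value that changed sign. Of the values of single genes, 2522 kept their side of the threshold, 27 lost and 2 gained a call. Of those 2522, 1172 were called neither in the main fit nor under the alternative, and 64 of these 1172 changed sign. Replicate numbers did not pair the mice: deviations of same-numbered mice correlated at -0.29 to 0.44, over 0.1 in 16 of 46 pairs. With the replicate number as a block, 8 genes were called in Th17 recipients against naive mice and 2 against Th1 recipients, and no call changed. Values near or below the array medians limit what can be said of naive and Act1 KO mice for 6 of the 9 genes. They also limit what can be said of WT recipients for Tlr9 and of Th1 recipients for Ly96.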

Other observations

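Within groups, Tlr9 and Myd88 deviated from their group means in the same mice, with a Pearson r of 0.72 over the 24 arrays. This r was the highest among pairs of the 9 genes. The group means of Tlr9 lay below every array median, so whether its deviations are those of its RNA cannot be told. In naive mice labelled Act1 KO, mouse 4 was the highest for both (3.53 for Tlr9 and 5.04 for Myd88) and mouse 2 the lowest for both (2.84 and 3.50). Naive Act1 KO mouse 4 also stood farthest out on the second principal component of the arrays (-30.0), and Th17 recipient 5 (-15.6) was the highest of its group for both genes. Other arrays lay as far out. Naive Act1 KO mouse 5 (-15.9) was neither highest nor lowest of its group for either gene. On the other side, Th17 recipient 2 labelled Act1 KO (19.6) was the lowest of its group for both. Naive WT mouse 3 (18.1) was the lowest for Tlr9 only. Without naive Act1 KO mouse 4 and WT Th17 recipient 5, r was 0.58, and without mouse 4 alone 0.63, alternatives chosen after seeing the data. These 2 arrays also had the highest array medians of their groups (3.566 for mouse 4 and 3.572 for recipient 5). Naive Act1 KO mouse 2 had the lowest of its group (3.497). The part of such array differences in r was not tested. By the same r of deviations, Tlr9 was closest to Parp9 (r = 0.84) and Pml (r = 0.83) among all genes outside the 9. Parp9, an interferon-induced ADP-ribosyltransferase family gene, was also among the 3 genes closest to Myd88 (r = 0.79). Cd14 deviated most like Ecm1 (r = 0.86) and Tlr4 most like Fstl3 (r = 0.79). The arrays share a laboratory and a normalization, and these values are a description chosen after they were seen.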
